A study of Oryza sativa with 8 samples.

Results

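The genes described here are OsGI, the rice GIGANTEA gene, and the rice pseudo-response regulators (PRR genes), which belong to the circadian clock. They were chosen by name. OsGI and OsPRR37 were named outright, and every other gene with a symbol or synonym of PRR or OsPRR followed by digits was added. OsPRR59 is not analysed here. This gave 5 genes, OsGI, OsPRR37, OsPRR73, OsPRR95 and OsPRR1, out of 17905 genes on probe sets with a single gene. They were read by 7 probe sets out of 57194 tested: 2 for OsPRR37, 2 for OsPRR73 and 1 for each of the others. The paired probe sets are called S1 and S2 after the endings of their names, and both of OsPRR73 read several transcripts of that gene.

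The plant clock is a network of transcriptional repressors that act in turn through the day. CCA1/LHY-type MYB factors peak around dawn, the PRR genes then follow one another in waves, and GIGANTEA and the evening genes rise towards dusk. In rice, OsGI promotes expression of the photoperiod gene Hd1, and OsPRR37, also known as Hd2 or DTH7, delays heading under long days. Ghd7 is a CCT-domain repressor of heading in long days. PRR proteins also carry a CCT domain.

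Transcripts were measured on rice Affymetrix arrays in 4 groups of 2 arrays each, 8 arrays in all, labelled as biological replicates. The groups were young leaves of Ghd7 overexpressors, young leaves of wild type, panicles of Ghd7 overexpressors and panicles of wild type. The wild type was the cultivar Hejiang19, and the overexpressors (OX-Ghd7HJ19) were transgenic plants of that background. Leaves came from field-grown plants 35 days old in the vegetative stage, and panicles were 0.1 cm long. All samples were collected 3 hours after dawn, so that cycling genes were seen at 1 time of day. The promoter of the transgene and the number of transgenic lines are not given in the sources used here, and Ghd7 itself is not analysed here. The description field speaks of flag leaves at heading for every sample, which goes against the tissue fields. The tissue fields were followed. All 4 measured green leaf marker genes lay between percentiles 99.8 and 100 of the array in both leaf groups. In the panicle groups they lay between percentiles 56.7 and 81.5. All 12 young panicle and meristem marker genes lay above the array median in both panicle groups, against 2 in overexpressor leaves and 3 in wild-type leaves. The green markers are not particular to an age of leaf, so they cannot tell young leaves from flag leaves.

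Values are log2 expression values made by the authors with RMA, a method that corrects background, normalizes arrays and summarises the probes of a probe set. A probe set passed a test at an adjusted p under 0.05 by limma, adjusted over all 57194 probe sets by the Benjamini-Hochberg method. Intervals are 95% intervals of single probe sets without that adjustment. Precision was limited by having 2 arrays a group. Replicates had a median SD of 0.10 in overexpressor leaves, 0.12 in wild-type leaves, 0.10 in overexpressor panicles and 0.07 in wild-type panicles.

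All 7 clock probe sets gave signal well inside the range of the array. In wild-type leaves their values lay between percentiles 76.2 and 97.7, and in wild-type panicles between 77.6 and 99.2. The lowest value of any array was that of OsPRR73 probe set S1 in overexpressor panicle replicate 2, at percentile 65.4.

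The first comparison asked whether Ghd7 overexpression went with a difference of clock transcripts in young leaves. None of the 7 clock probe sets passed, where 4.42% of all probe sets did. At an unadjusted p under 0.05 there were 3, for OsPRR37, OsPRR1 and OsPRR95, where 16.9% of all probe sets reached that level. With 1 probe set per gene, 2 of the 5 genes reached it, against 4609 of all 17905 genes. The median change of the 7 was -0.27, and that of all probe sets was 0.03.

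OsGI encodes a large nuclear protein that links the clock to flowering. It had log2 values of 7.42 and 7.50 in overexpressor leaves, against 7.42 and 7.40 in wild-type leaves. Both overexpressor arrays lay just above both wild-type arrays. The change was 0.06 ± 0.18 (SE), with a 95% interval from -0.36 to 0.47 (limma, adjusted p = 0.935).

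OsPRR37 was read by 2 probe sets. Probe set S1 had values of 5.89 and 5.67 in overexpressor leaves, against 6.74 and 6.50 in wild-type leaves. The groups did not overlap, and the change was -0.84 ± 0.20, with an interval from -1.29 to -0.38 (limma, adjusted p = 0.0539). Probe set S2 had values of 7.24 and 7.73 in overexpressor leaves, against 7.59 and 7.92 in wild-type leaves. Here the groups overlapped, and the change was -0.27 ± 0.21 (limma, adjusted p = 0.576). The probe sets of OsPRR37 thus shared a sign in leaves and differed in size. The first lay just outside the threshold and passed under 7 of 16 alternatives, and the second passed under none of 17. Some passes of the first came from leaving out an overexpressor panicle array, which left its leaf change as it was. Without any 1 of the leaf arrays the first did not pass, with changes from -0.95 to -0.72.

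OsPRR73 is the closest relative of OsPRR37, and its product acts in the early part of the PRR sequence. Its probe set S1 had values of 8.60 and 8.74 in overexpressor leaves, against 8.73 and 9.09 in wild-type leaves. Probe set S2 had 10.50 and 10.76 in overexpressor leaves, against 10.32 and 10.51 in wild-type leaves. The groups overlapped in both, and the changes had opposite signs, -0.24 ± 0.36 and 0.21 ± 0.39 (limma, adjusted p = 0.815 and 0.861).

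OsPRR95 belongs to the middle of the PRR sequence, and OsPRR1 is the rice counterpart of Arabidopsis TOC1, an evening gene. OsPRR95 had values of 10.23 and 10.05 in overexpressor leaves, against 10.44 and 10.74 in wild-type leaves. Its change was -0.45 ± 0.14, with an interval from -0.77 to -0.13 (limma, adjusted p = 0.135). OsPRR1 had values of 7.41 and 7.25 in overexpressor leaves, against 7.90 and 7.84 in wild-type leaves. Its change was -0.53 ± 0.14, with an interval from -0.84 to -0.23 (limma, adjusted p = 0.0666). In OsPRR95 and OsPRR1 both overexpressor arrays lay below both wild-type arrays. OsPRR1 passed under 4 of 17 alternatives (adjusted p = 0.0359 to 0.304), and OsPRR95 under none.

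Over the 5 genes, both overexpressor arrays lay below both wild-type arrays in 3 of 7 clock probe sets in leaves, against 18.3% of all probe sets. In 1 of 7, that of OsGI, both lay above, against 25.2% of all probe sets. The plot of values by array shows these leaf differences of under 1 log2 unit beside those of panicles.

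**Figure D1:**
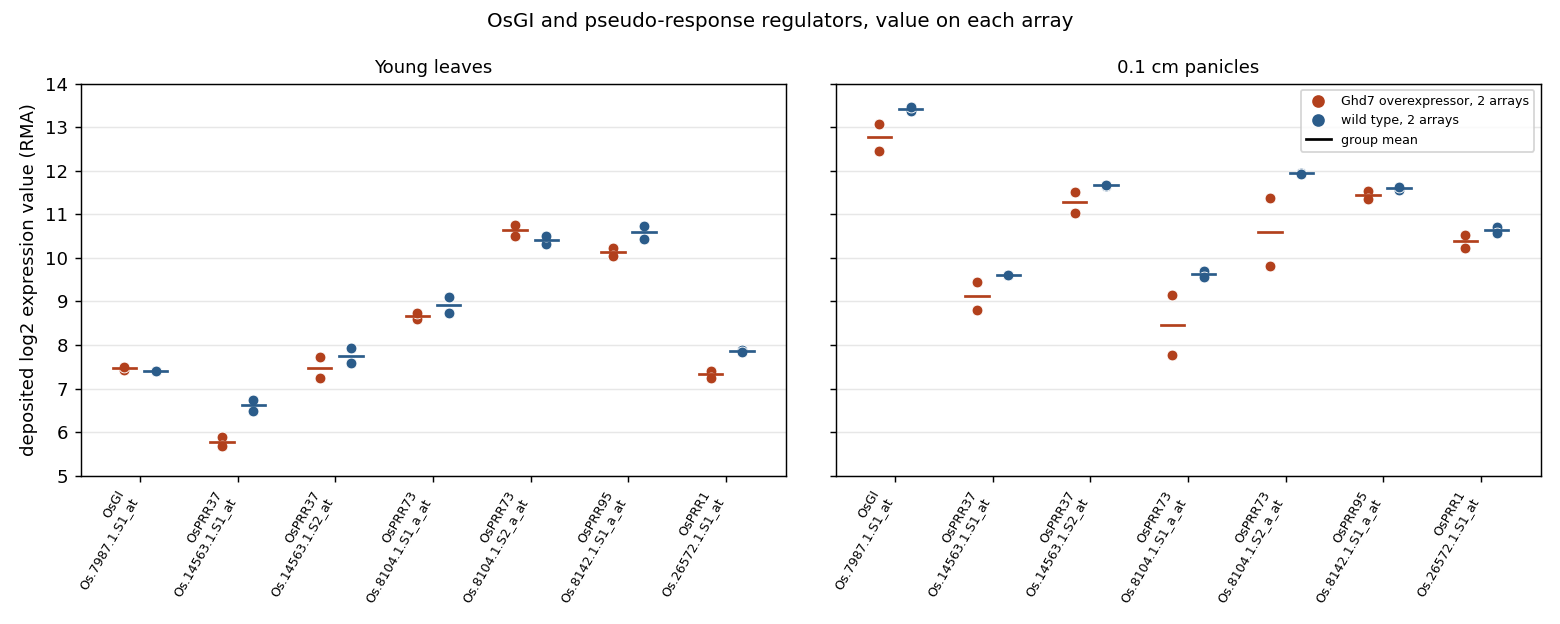
Deposited log2 expression value of each clock probe set on each array, in young leaves (left panel) and 0.1 cm panicles (right panel). Points are the 2 arrays of a group and bars the group mean, with overexpressors to the left of wild type within each probe set. In panicles every overexpressor array lies below both wild-type arrays, and the overexpressor replicates lie farther apart than the wild-type ones, most of all for OsPRR73.

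The second comparison asked the same of 0.1 cm panicles. Again none of the 7 clock probe sets passed, where 2.89% of all probe sets did. Those of OsGI and OsPRR73 and 1 of OsPRR37, 4 in all, had an unadjusted p under 0.05, where 15.3% of all probe sets did. With 1 probe set per gene, 2 of the 5 genes did, against 2902 of all 17905 genes. Both overexpressor arrays lay below both wild-type arrays in all 7 probe sets of all 5 genes, against 24.0% of all probe sets. The median change of the 7 was -0.48, and that of all probe sets was 0.02. No test of the 5 genes as a group was made, and they were measured on the same 4 arrays. In tissue samples, fewer cells that express a gene and less RNA per cell cannot be told apart.

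OsGI had values of 13.08 and 12.46 in overexpressor panicles, against 13.37 and 13.45 in wild-type panicles. The change was -0.64 ± 0.18, with an interval from -1.06 to -0.22 (limma, adjusted p = 0.124). Overexpressor replicate 1 lay 0.33 below the wild-type mean and replicate 2 lay 0.96 below it.

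OsPRR73 had the widest gap of the 5 genes in panicles. Probe set S2 had values of 11.38 and 9.81 in overexpressor panicles, against 11.95 and 11.93 in wild-type panicles. The change was -1.35 ± 0.39, which is 2.54-fold, with an interval from -2.24 to -0.46 (limma, adjusted p = 0.130). Probe set S1 had 9.15 and 7.77 in overexpressor panicles, against 9.71 and 9.56 in wild-type panicles. Its change was -1.17 ± 0.36 (limma, adjusted p = 0.144). Both probe sets of OsPRR73 thus gave a change of the same sign and similar size in panicles, unlike in leaves.

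The remaining genes differed less. OsPRR37 had values of 9.45 and 8.80 in overexpressor panicles and 9.61 and 9.60 in wild-type panicles by probe set S1 (-0.48 ± 0.20; limma, adjusted p = 0.299). Probe set S2 gave 11.51 and 11.04 in overexpressor panicles and 11.65 and 11.68 in wild-type panicles (-0.39 ± 0.21; limma, adjusted p = 0.429). OsPRR1 had 10.53 and 10.24 in overexpressor panicles and 10.71 and 10.57 in wild-type panicles (-0.25 ± 0.14; limma, adjusted p = 0.436). These 3 probe sets had an overexpressor array within 0.16 of the wild-type mean. OsPRR95 had 11.54 and 11.34 in overexpressor panicles and 11.57 and 11.62 in wild-type panicles (-0.15 ± 0.14; limma, adjusted p = 0.702). Its interval ran from -0.48 to 0.17.

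The size of these differences depended on 1 array. Overexpressor panicle replicate 2 was lower than replicate 1 in 7 of 7 clock probe sets, where 48.7% of all probe sets were. Replicate 2 minus replicate 1 was -1.57 and -1.38 for the OsPRR73 probe sets, -0.63 for OsGI and -0.65 for the OsPRR37 probe set S1. The median gap of all probe sets between these replicates was 0.14. In wild-type panicles the widest of the 7 gaps was that of OsPRR73 probe set S1, at -0.15. Leaving out either array leaves 1 overexpressor panicle, which is then assumed to vary like the other groups, so the gap between these replicates no longer enters the error. Without overexpressor replicate 1, the change of OsGI was -0.96 (limma, adjusted p = 0.0152) and those of OsPRR73 S2 and S1 were -2.13 and -1.86 (adjusted p = 0.00160 and 0.00424). Without overexpressor replicate 2 the changes were -0.33 for OsGI (limma, adjusted p = 0.409) and -0.56 and -0.48 for OsPRR73 (adjusted p = 0.211 and 0.366). All 7 changes kept their negative sign without any of the 8 arrays, which had to be so, since the panicle groups did not overlap.

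Markers of green tissue differed between the panicle groups as well. The 4 green leaf marker genes were read by 11 probe sets, of which 6 fell in overexpressor panicles and 0 rose by limma, and 2 had a positive change. With 1 probe set per gene, 2 of 4 fell, where 3.69% of all genes passed. With 1 probe set per gene, their summed linear level was 687 to 1274 in overexpressor panicles, against 2066 to 2235 in wild-type panicles. One probe set of the chlorophyll a/b-binding protein gene CAB2R had log2 values of 9.45 and 7.73 in overexpressor panicles, against 10.02 and 10.11 in wild-type panicles. Overexpressor panicle replicate 2 was lower than replicate 1 in 7 of the 11 green marker probe sets and higher in 4, GOS5 among them with 6.65 in replicate 1 and 6.85 in replicate 2. Of the 12 young panicle marker genes 3 rose and 4 fell, against the same 3.69% of all genes. OsSPL14, FZP and LOG rose, by 1.09, 0.99 and 0.81. LOG went against its list in wild type, where 11 of the 12 genes were higher in panicles than in leaves. Its panicle minus leaf difference there was -4.63 ± 0.11 after quantile normalization of all arrays. OsMADS7, OsMADS16, OsMADS8 and DL fell, with changes of -3.22, -1.99, -1.98 and -1.49. The summed level of all 12 hides this split. It was 48720 to 51080 in overexpressor panicles, against 52340 to 53280 in wild-type panicles. After quantile normalization of all arrays the ranges overlapped, with 27060 to 28240 in overexpressor panicles, against 26720 to 27070 in wild-type panicles. The part of tissue makeup or panicle stage in the clock values was not tested.

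**Figure D2:**
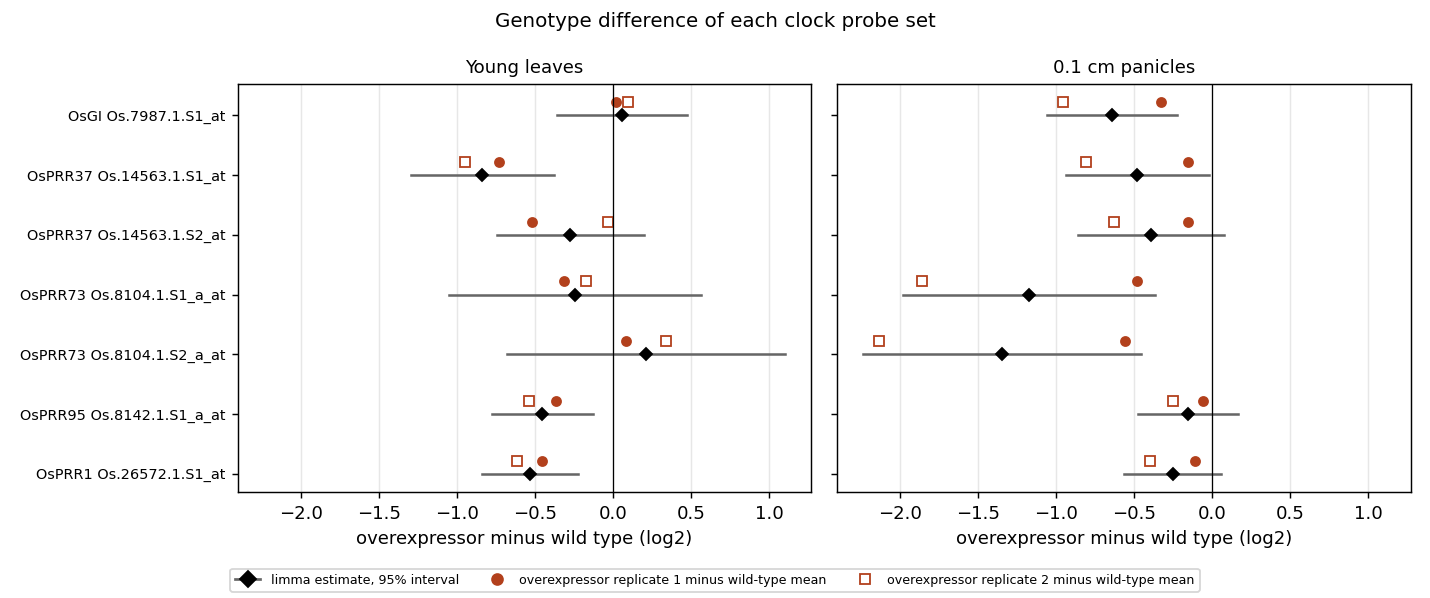
Overexpressor minus wild type on the log2 scale for each clock probe set, in young leaves (left) and 0.1 cm panicles (right). Diamonds and bars are the limma estimate and its 95% interval, filled circles and open squares the overexpressor replicates 1 and 2 minus the wild-type mean. In panicles every circle and square lies below 0, with the square of replicate 2 always farther out.

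The third comparison tested whether the genotype difference itself differed between panicles and leaves. None of the 7 clock probe sets passed, where 3.84% of all probe sets did. The difference of the effects, panicle minus leaf, was -0.70 ± 0.26 for OsGI, with an interval from -1.29 to -0.11 (limma, adjusted p = 0.207). It was -1.56 ± 0.56 for OsPRR73 probe set S2 (limma, adjusted p = 0.186) and -0.93 ± 0.50 for S1 (adjusted p = 0.402). OsPRR95 and OsPRR1 had positive values of 0.30 ± 0.20 and 0.28 ± 0.19 (limma, adjusted p = 0.519 and 0.529), since their changes were the smaller ones in panicles. The values of OsPRR37 were 0.36 ± 0.29 and -0.12 ± 0.29, of opposite sign between its probe sets. Without overexpressor panicle replicate 1, OsGI (adjusted p = 0.0316) and both probe sets of OsPRR73 (adjusted p = 0.00503 and 0.0190) passed by limma. Without replicate 2 none of these passed: the values were -0.38 for OsGI and -0.77 and -0.24 for OsPRR73 S2 and S1 (limma, adjusted p = 0.352, 0.134 and 0.706). Both sets of values rest on a lone overexpressor panicle array.

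The fourth comparison set wild-type panicles beside wild-type leaves. In the deposited values the median probe set was 1.58 log2 units higher in panicles, so all 8 arrays were quantile normalized again for this test, and a direction is given where 3 scalings shared it. After that step 76.9% of all probe sets passed, 20562 higher and 23441 lower in panicles, where the deposited values gave 48108 higher and 4504 lower, so that a call by itself says little about a clock gene.

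Of the 5 genes, OsGI had the widest tissue gap. It had values of 12.70 and 12.82 in wild-type panicles, against 8.86 and 8.84 in wild-type leaves, after that normalization. The difference was 3.91 ± 0.23, which is 15.1-fold (limma, adjusted p = 3.79e-07). It was 4.37 with array medians set equal, and 6.00 in the deposited values, 4.42 above the median shift. In place on the array, OsGI lay at percentiles 99.1 and 99.2 in wild-type panicles and 83.6 and 83.5 in wild-type leaves. Overexpressors had 12.29 and 11.47 in panicles, against 8.90 and 9.00 in leaves. On this scale the overexpressor gap minus the wild-type gap was -0.98 ± 0.32, which did not pass (limma, adjusted p = 0.158). The order of group means was wild-type panicles, overexpressor panicles, overexpressor leaves and wild-type leaves. The leaf means differed by 0.10 ± 0.23, which did not pass either (limma, adjusted p = 0.875).

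OsPRR37 was higher in panicles by probe set S2, with 10.40 and 10.45 in wild-type panicles against 9.00 and 9.31 in wild-type leaves. The difference was 1.27 ± 0.21 (limma, adjusted p = 5.34e-04), and 2.28 with array medians set equal. Its other probe set differed by 0.08 ± 0.19 (limma, adjusted p = 0.708) and by 1.35 with medians set equal.

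Relative to other probe sets, OsPRR95 and OsPRR73 probe set S1 stood lower in panicles, while OsPRR73 probe set S2 did not pass after quantile normalization. OsPRR95 had 10.28 and 10.37 in wild-type panicles, against 11.42 and 11.71 in wild-type leaves. The difference was -1.24 ± 0.14 (limma, adjusted p = 3.81e-05) and -0.63 with medians set equal. OsPRR73 differed by -2.02 ± 0.29 (limma, adjusted p = 1.92e-04) by probe set S1 and by -0.64 ± 0.43 (adjusted p = 0.204) by S2. With medians set equal its values were -0.91 and -0.11. In the deposited values these 3 probe sets were higher in panicles, by 1.0, 0.72 and 1.52, all less than the median shift of 1.58, so their direction depends on the scaling.

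OsPRR1 gave no direction. It had 9.27 and 9.12 in wild-type panicles, against 9.28 and 9.23 in wild-type leaves, a difference of -0.06 ± 0.13 (limma, adjusted p = 0.695). With medians set equal it was 1.14. Its place on the array was alike in both tissues, at percentiles 86.7 and 85.6 in wild-type panicles and 86.7 and 86.4 in wild-type leaves.

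OsCCA1, by its brighter probe set, and OsPCL1 differed between tissues in opposite directions. OsCCA1, also named OsLHY, the dawn MYB factor of the clock, had deposited values of 9.62 and 9.59 in wild-type panicles, against 12.86 and 13.10 in wild-type leaves. After quantile normalization the difference was -5.31 ± 0.12 by its brighter probe set (limma, adjusted p = 1.27e-09), and it was negative under all 3 scalings. Its dimmer probe set lay between percentiles 17.3 and 32.8 on the 8 arrays, where a value may be background, and differed by -0.17 ± 0.14 (limma, adjusted p = 0.310). OsPCL1, whose Arabidopsis counterpart PCL1, or LUX, is an evening repressor, had deposited values of 11.61 and 11.58 in wild-type panicles, against 4.75 and 5.0 in wild-type leaves. The difference after normalization was 4.54 ± 0.14 (limma, adjusted p = 8.18e-09), positive under all 3 scalings. In wild-type leaves OsPCL1 lay at percentiles 54.3 and 58.0, near the array median, where a value may be partly background. The size of its gap is thus less certain than its sign. Both tissues were labelled with the same sampling hour. Tissue, plant stage and the day of sampling cannot be told apart.

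**Figure D3:**
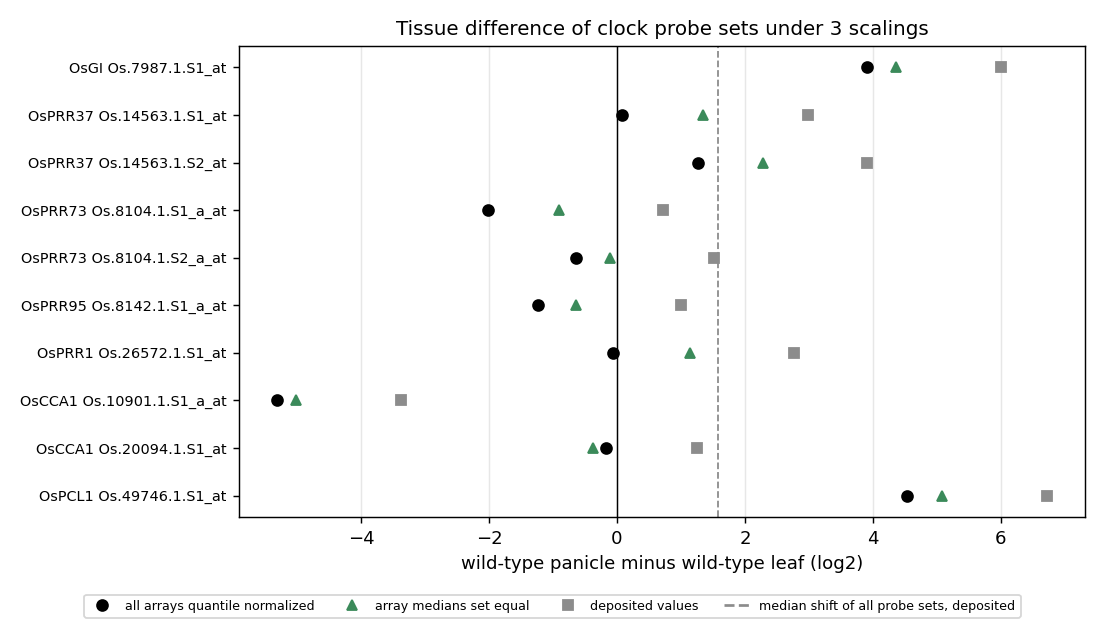
Wild-type panicle minus wild-type leaf on the log2 scale for the clock probe sets and those of OsCCA1 and OsPCL1. Circles are values after quantile normalization of all 8 arrays, triangles with array medians set equal and squares the deposited values, whose median shift is the dashed line at 1.58. OsGI and OsPCL1 lie to the right of 0 and the brighter OsCCA1 probe set to the left under each scaling, while OsPRR73, OsPRR95 and OsPRR1 change side.

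Of 29 names listed for other clock genes, 10 matched the gene table, for 3 genes, and OsCCA1 and OsPCL1 were measured. Neither passed for genotype in leaves or panicles. The difference of the brighter OsCCA1 probe set was 0.07 ± 0.12 in leaves and -0.17 ± 0.12 in panicles (limma, adjusted p = 0.856 and 0.589), and the dimmer one had 0.38 ± 0.14 and 0.14 ± 0.14 (adjusted p = 0.197 and 0.713). That of OsPCL1 was -0.14 ± 0.13 in leaves and -0.24 ± 0.13 in panicles (limma, adjusted p = 0.685 and 0.471).

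The 5 measured photoreceptor and clock kinase genes were the phytochrome genes OsPHYA, OsPHYB and OsPHYC, the chromophore gene SE5 and the casein kinase gene Hd16. Of these, 0 passed in leaves by limma and 0 in panicles, where 8.76% and 3.69% of all genes passed. At an unadjusted p under 0.05 there was 1 in leaves, OsPHYB at -0.52 ± 0.13 (limma, adjusted p = 0.0708), and 0 in panicles. Of all 17905 genes, 4609 reached that level in leaves and 2902 in panicles.

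Of 12 measured genes listed for photoperiodic flowering, OsPHYB again among them and each taken with 1 probe set, 1 rose and 3 fell in leaves and 1 rose and 2 fell in panicles, where 8.76% of all genes passed in leaves and 3.69% in panicles. The florigen gene Hd3a, OsMADS14 and OsMADS18 were those that fell in leaves, and OsMADS50 rose by 0.50 (limma, adjusted p = 0.0480). Hd3a had values of 4.18 and 3.50 in overexpressor leaves, against 10.60 and 10.58 in wild-type leaves. The overexpressor values lay at percentiles 43.7 and 30.2 of their arrays, where a value may be background, so the size of the fall is not given. In panicles OsMADS56 changed by -0.75 ± 0.13 and OsMADS50, an activator, by 0.63 ± 0.12 (limma, adjusted p = 0.0175 and 0.0254). OsLFL1, a repressor of flowering, was the other gene that fell (limma, adjusted p = 0.0170). It lay between percentiles 9.6 and 42.6 on the panicle arrays, where a value may be background, so the size of its fall is not given either. The dimmest probe set of Ehd3, not the one taken for that gene, also fell in panicles (limma, adjusted p = 0.0185). It lay at percentiles 56.5 and 43.7 in overexpressor panicles. The brighter Ehd3 probe sets gave -0.32 and -0.30 and did not pass (limma, adjusted p = 0.322 and 0.299). The median change of the 12 genes was -0.28 in leaves and -0.02 in panicles.

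Profiles within tissues were compared to find the genes most like OsGI and OsPRR37. For each probe set the mean of the 4 arrays of a tissue was taken off, and Pearson's r was computed over the 8 arrays among 2019 probe sets of named genes above the array median in both tissues. These values share their arrays and rest largely on a few of them, so they are given as a description. Nearest to OsGI were OsSUT2, a sucrose transporter gene (r = 0.989), the OsPRR73 probe set S2 (0.987), CAB2R (0.974), OsGLK2 (0.971) and OsCDSP32 (0.967). GLK factors activate chloroplast genes, and CDSP32 is a thioredoxin of the chloroplast. In panicles the changes were -0.78 for OsGLK2, -0.90 for OsCDSP32, -0.52 for OsSUT2 and -1.48 for CAB2R. These genes were picked for likeness to OsGI, which was lower in overexpressor than in wild-type panicles on the same arrays. Lower values in overexpressor panicles were thus favoured by the choice and are no separate result.

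Nearest to the OsPRR37 probe set S2 were OsVTE2-1, an enzyme gene of vitamin E synthesis, with both of its probe sets (r = 0.971 and 0.965), and OsproT, a proline transporter gene (0.966). OsPCL1 (0.951) and OsNMCP1a (0.948) followed. None of these 5 probe sets passed for genotype in leaves or panicles. The other OsPRR37 probe set had its highest likeness within the 5 genes to OsPRR1 (r = 0.977) and reached 0.609 with the second OsPRR37 probe set. OsPRR95 and OsPRR1 reached 0.864 with each other, and OsGI reached 0.292 with OsPRR95 and 0.422 with OsPRR1.

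**Figure D4:**
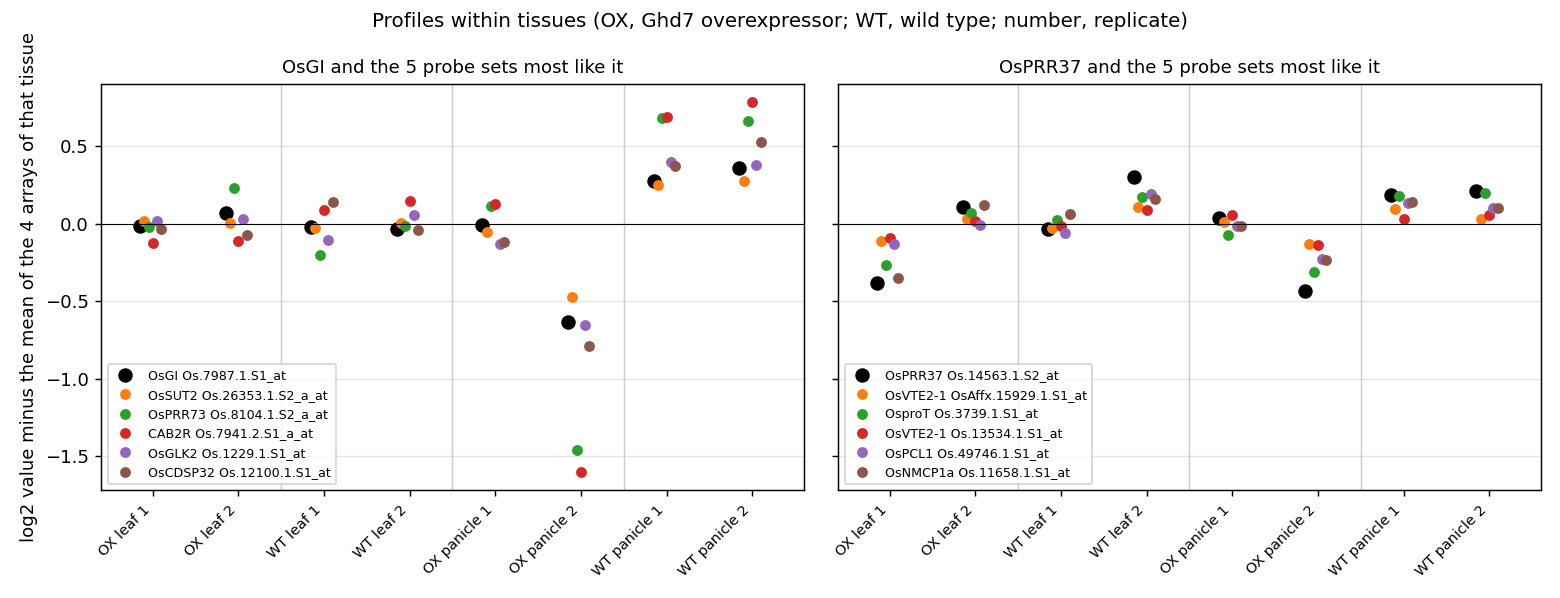
Log2 value on each array minus the mean of the 4 arrays of that tissue, for OsGI (left) and OsPRR37 probe set S2 (right) in black and the 5 probe sets most like each in colour. In the left panel all 6 probe sets are lowest in overexpressor panicle replicate 2, and their leaf values stay closer to 0 than the lowest panicle ones.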

How the data were processed

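The authors deposited 1 log2 value per probe set and array. The submitters' processing notes name RMA. Its version, and whether both tissues were normalized together, are not given in the sources used here. The median of an array was 4.49 to 4.53 for leaves but 6.13 to 6.15 for panicles. Of 57381 probe sets, 123 AFFX controls and 64 reporter sets were left out. The platform annotation paired 22436 of the remaining 57194 with 1 gene, and synonyms came from a RefSeq gene table (assembly ASM3414082v1). The coordinates and the sequences of the members are not used here.

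Titles gave the groups and replicate numbers. A model with a mean for each group was fitted over the 8 arrays (limma 3.58.1, R 4.3.3, 4 residual degrees of freedom, eBayes, two-sided), and p-values were adjusted over all probe sets. The fit was tested on simulated data. Tissues were compared after quantile normalization of all arrays. The gene named LIP1 was left out of the clock list, since its other synonyms (Lip-syn, LS) belong to another enzyme gene. Members and lists were chosen with earlier results of these data known. Named genes were all members, list genes that passed or had the smallest p, and the 5 probe sets most like OsGI and OsPRR37. Alternatives were other normalizations, removal of dim probe sets, fitting only the arrays compared, an intensity trend, array weights, a replicate block, 1 probe set per gene and leaving out each array. The labels call replicates biological without saying how plants were pooled, so p-values measure the spread between these samples. Python 3.11.15, pandas 2.3.3 and matplotlib 3.10.9 made tables and figures.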

Additional observations from a re-analysis of the deposited data

How the results depend on the processing

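Over all probe sets, the number that passed for genotype depended on the arrays and the fit. In leaves 2529 passed, 325 with only the 4 arrays compared, and 1051 to 3292 without 1 array. In panicles 1652 passed, 692 with only the 4 arrays compared, 1042 among probe sets with a mean above the median, 726 with 1 probe set per gene, 2807 with array weights, 1097 with the replicate block, and 420 to 1645 without 1 array. The difference of effects had 2195, and 630 to 2670 without 1 array. The tissue difference had 44003, 25202 among probe sets with a mean above the median, 15394 with 1 probe set per gene, and 39927 to 43996 without 1 array. Testing fewer probe sets or fitting fewer arrays can by itself move a count, and the counts did not all move the same way. In leaves 2773 passed among probe sets with a mean above the median, more than the 2529 among all probe sets. The cause was otherwise not tested.

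Of 650 alternative values of the clock genes, OsCCA1 and OsPCL1 included, 613 kept their sign and side of the threshold, 23 passed where the reported value did not, and 14 turned their sign. Many alternatives, such as array weights, the intensity trend and the replicate block, leave the estimate itself unchanged, so its sign could not turn there. The tissue difference turned in the deposited values for OsPRR73 (0.72 and 1.52), OsPRR95 (1.0), OsPRR1 (2.77) and the dimmer OsCCA1 probe set (1.26), and with medians set equal for OsPRR1 (1.14). Leaving out 1 array gave -0.048 to 0.21 and -0.14 to 0.016 for the tissue difference of OsPRR37 probe set S1 and of OsPRR1, -0.36 to 0.13 and -0.22 to 0.027 for the difference of effects of OsPRR37 probe set S2 and of OsPCL1, and -0.051 to 0.19 for the brighter OsCCA1 probe set in leaves. Replicate numbers did not pair the arrays: differences between replicates correlated across probe sets with r = 0.007 between the leaf genotypes and r = 0.057 between the panicle genotypes. The replicate block changed no call of a clock gene (limma, adjusted p = 0.0583 for OsPRR37 probe set S1 in leaves). With 2 arrays a group, no array could be tested as an outlier.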
